A study of Mus musculus with 18 samples.

Results

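The transcripts described here are 8 messages that the growing mouse oocyte makes and stores: the zona pellucida messages Zp1 (NM_009580), Zp2 (NM_011775) and Zp3 (NM_011776), the growth factor messages Gdf9 (NM_008110) and Bmp15 (NM_009757), the meiotic kinase message Mos (NM_020021), the oocyte linker histone message H1foo (NM_138311, now named H1f8 by RefSeq) and Oosp1 (NM_133353), which encodes a protein secreted by the oocyte. They were chosen by RefSeq identifier, and all 8 were present among the 26823 transcripts listed for every embryo, of which 22526 had a count in some embryo. The samples were 18 individual 2-cell embryos of the 129SVE background, 9 of wild-type fathers (numbers 1, 2 and 3) and 9 of Parg(110)-/- fathers (numbers 6, 7 and 8), with 3 embryos per father. All mothers were wild-type, so that the genotype of a sample is that of its father, and the embryos of Parg(110)-/- fathers, here called Parg(110) embryos, were themselves heterozygous. Parg(110)-/- mice lack the largest isoform of poly(ADP-ribose) glycohydrolase, the enzyme that removes poly(ADP-ribose) chains, but keep other isoforms, so that the allele reduces and does not abolish the activity. Embryos are named by father and number (7-3 is embryo 3 of father 7).

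A fully grown oocyte is nearly silent in transcription and carries a stock of maternal messages through meiosis and fertilization. Most of that stock is degraded by the 2-cell stage, when the embryonic genome is activated, so a maternal message in a 2-cell embryo is a remnant under clearance. Because the mothers were wild-type in both groups, the comparison asked whether the remnants of these messages differed in embryos that received the genome of a Parg(110)-/- sperm.

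The 3′ end of an oocyte message carries the poly(A) signal and, in some messages, elements that control the length of the poly(A) tail during meiosis. The last 30 bases of each transcript in the GENCODE vM1 annotation of NCBIM37 (mm9) are shown 5′ to 3′ on the strand of the gene. The 3 zona messages are set apart from the other members by the length of their 3′ untranslated regions, given below the sequences. Capitals mark the poly(A) signal AATAAA.
Zp1, chr19:10988779-10988808, minus strand: actcAATAAAccattgtttgaaaactcctg
Zp2, chr7:127275875-127275904, minus strand: gattggacttgcaAATAAAgagactgcagt
Zp3, chr5:136464465-136464494, plus strand: tatcccttccgcAATAAAagaagaaactca
Gdf9, chr11:53251377-53251406, plus strand: acggaagAATAAActgttgatggcataaat
Bmp15, chrX:5891225-5891254, minus strand: agAATAAAttttcatttatgtgtgctttgc
Mos, chr4:3797804-3797833, minus strand: ttttaggaAATAAAgttaccacgaacttca
H1foo, chr6:115900220-115900249, plus strand: tcataatttatcAATAAAgactttgtattc
Oosp1, chr19:11741950-11741979, minus strand: ctaatgatcataaatagttattttttcttg
The 3′ untranslated regions of Zp1, Zp2 and Zp3 were annotated as 34, 28 and 13 bases. Only 1.90% of 24626 annotated coding transcripts with such a region had one of 34 bases or fewer, and their median was 724 bases. In Zp3 the AATAAA overlapped the stop codon. The regions of the other members were 360 bases in Gdf9, 1523 in Bmp15, 126 in Mos, 153 in H1foo and 230 in Oosp1. On the transcript strand, AATAAA lay within the last 40 bases of 7 of the 8 transcripts, and of 58.0% of all annotated coding transcripts. Neither AATAAA nor ATTAAA was found in that window of Oosp1. The letters TTTTAT, one form of the cytoplasmic polyadenylation element, lay within the last 100 bases of Gdf9 and H1foo, starting 39 and 63 bases from the end, and in 13.3% of all transcripts. The longer form TTTTAAT, which does not contain TTTTAT, was found in that window of none of the 8, and of 4.71% of all.

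Where a gene has several annotated transcripts, one with a consensus coding sequence was used. The Zp1 transcript lies at chr19:10988779-10995122 with 12 exons, that of Zp2 at chr7:127275875-127288804 with 18, Zp3 at chr5:136455969-136464494 with 8, and Gdf9 at chr11:53246801-53251406 with 2. Another annotated transcript of Zp2 extends to chr7:127270286, so that the region of 28 bases holds for the transcript used. Bmp15 lies at chrX:5891225-5897839 with 2 exons, Mos at chr4:3797804-3799252 with 1, H1foo at chr6:115894956-115900249 with 5, and Oosp1 at chr19:11741950-11765640 with 5. The exons of the 8 overlapped no exon of another annotated gene, and the counts of none of the 8 were identical to those of another transcript, whereas 5323 of the 22526 counted transcripts shared theirs.

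Total counts lay between 2852858 and 13355161 per embryo. The tissue label was checked against marker messages. All 15 of 15 other oocyte-enriched messages were detected, 11 of them in every embryo. Of the 2-cell activation list, 10 messages were detected in some embryo but only 2 in every embryo. That list holds near-identical copies such as the Zscan4 genes, and only uniquely mapped reads were counted. Their detection may therefore be understated. Of 11 cumulus and granulosa markers, 5 (Amh, Foxl2, Fshr, Ptx3 and Tnfaip6) had no count in any embryo, and Amhr2 alone was counted in all 18. These 11 markers summed to between 4.87 and 41.5 CPM in wild-type and between 5.94 and 20.8 CPM in Parg(110) embryos. Of 8 sperm markers, Prm1, Tnp1, Tnp2 and Odf1 had no count, and their sum lay between 0 and 6.29 CPM in wild-type and between 0 and 4.96 CPM in Parg(110) embryos. Each library is one whole embryo, so that fewer cells holding a message and less of it per cell cannot be told apart.

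Levels are given as CPM, the count divided by the total count of the embryo and multiplied by 1000000. Between genes they are compared per kilobase of annotated transcript, unless stated. Per kilobase, the order by mean over 18 embryos was Oosp1 (101 CPM per kb), Gdf9 (89.9), H1foo (85.8), Bmp15 (39.0), Zp1 (19.4), Zp2 (15.3), Zp3 (14.9) and Mos (0.884). Only the last step, from Zp3 to Mos, was larger than its spread between embryos, with a mean log2 ratio per kb (0.1 added to each level) of 5.05 ± 2.64 (SD, n = 18). At each of the other steps the mean log2 ratio was smaller than its SD, so that the order of those neighbours varied between embryos. Whether their mean levels differed was not tested. Bmp15 over Zp1, for example, had a mean log2 ratio of 2.02 ± 2.39 (SD) and was higher in 14 of 18 embryos. For Oosp1 over Gdf9 (-0.08) and Zp1 over Zp2 (-0.61) the mean log2 ratio ran against the order by mean CPM per kb. Zp1 was the highest zona message per kilobase in 7 embryos, Zp2 in 7 and Zp3 in 4. Gdf9 exceeded Bmp15 per kilobase in 18 of 18 embryos, by a median ratio of 1.89 in wild-type and 2.78 in Parg(110) embryos (range over all 18, 1.02 to 8.41). That count depends on the annotated lengths, 1793 bases for Gdf9 and 3060 for Bmp15, which may differ from those of the RefSeq transcripts counted. Before division by length, Bmp15 had the higher CPM in embryos 1-1, 1-2, 7-1 and 7-3, and Gdf9 in all others.

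ZP1, ZP2 and ZP3 are glycoproteins of the coat around the egg: ZP2 and ZP3 build its filaments and ZP1 links them. Zp1 CPM had a lowest value of 0.263, a median of 20.4 and a highest value of 113 in wild-type embryos, and 0.843, 6.10 and 118 in Parg(110) embryos. The lowest values rest on 2 counts in embryo 3-2 and 3 counts in embryo 8-1, with exact binomial 95% intervals of 0.0319 to 0.951 and 0.174 to 2.46 CPM. The groups overlapped except for embryo 7-1, above all wild-type embryos, and embryo 3-2, below all Parg(110) embryos. The mean was 45.1 ± 42.5 in wild-type and 31.0 ± 39.3 CPM in Parg(110) embryos (SD, n = 9 each). The log2 fold change of Parg(110) against wild-type embryos was -0.52 ± 0.82 (SE), with edgeR's adjusted p = 0.979. Within fathers Zp1 was even in the embryos of father 2 (20.4, 19.5 and 19.3 CPM) and uneven in those of father 3 (47.2, 0.263 and 113 CPM). The 3 embryos of father 8 had 0.843, 6.10 and 4.73 CPM, all below the wild-type median. They lay within the wild-type range through embryo 3-2 alone, with its 2 counts, as the next lowest wild-type embryo, 1-3, had 6.77 CPM.

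Zp2 CPM ran from 9.80 over a median of 25.96 to 51.8 in wild-type embryos and from 8.78 over 38.5 to 84.5 in Parg(110) embryos. Embryos 7-1, 7-2 and 8-2 lay above every wild-type embryo, and embryo 6-2 below. The log2 fold change was 0.43 ± 0.46 (SE; edgeR's adjusted p = 0.971). Zp3 CPM ran from 5.79 over 14.1 to 27.6 in wild-type embryos and from 2.50 over 30.2 to 53.1 in Parg(110) embryos. Of the 9 Parg(110) embryos only 2 lay within the wild-type range of Zp3: 5 Parg(110) embryos (6-1, 6-2, 7-1, 7-2 and 8-1) lay above the wild-type range and 2 (7-3 and 8-3) below. Its log2 fold change was 0.63 ± 0.56 (SE; edgeR's adjusted p = 0.966), and the group means were 15.5 ± 7.17 and 24.0 ± 18.2 CPM (SD, n = 9 each).

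GDF9 and BMP15 are ligands of the TGF-beta family through which the oocyte acts on the granulosa cells around it. Gdf9 CPM ran from 115 over a median of 137 to 177 in wild-type embryos and from 105 over 173 to 228 in Parg(110) embryos. Both groups were narrow, and 4 Parg(110) embryos (6-2, 6-3, 7-2 and 8-2) lay above the wild-type range and 1 (7-3) below. The mean was 147 ± 23.5 in wild-type and 175 ± 43.9 CPM in Parg(110) embryos (SD, n = 9 each). The log2 fold change was 0.26 ± 0.22 (SE; 95% interval -0.19 to 0.71; edgeR's adjusted p = 0.965). Within the wild-type fathers, the highest of the 3 embryos exceeded the lowest by only 1.17-, 1.05- and 1.22-fold; within fathers 6, 7 and 8 the ratios were 1.77, 2.17 and 1.504.

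Bmp15 CPM ran from 27.8 over 137 to 175 in wild-type embryos and from 54.2 over 120.5 to 288 in Parg(110) embryos. One embryo of each wild-type father was low (1-3 at 53.3, 2-3 at 37.5 and 3-1 at 27.8 CPM), and these 3 lay below every Parg(110) embryo. Embryo 7-1, at 288 CPM, was the only Parg(110) embryo above the wild-type range. Its log2 fold change was 0.20 ± 0.36 (SE; edgeR's adjusted p = 0.980), and without embryo 7-1 it was -0.04.

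MOS is the kinase that activates the MAP kinase pathway in the oocyte and holds the egg in its second meiotic division until fertilization. Mos was the rarest member, with a count in 5 of 9 wild-type and 5 of 9 Parg(110) embryos. Its counts were 33, 1, 0, 2, 0, 0, 0, 6 and 5 in wild-type embryos 1-1 to 3-3, and 0, 11, 0, 25, 0, 40, 0, 3 and 20 in Parg(110) embryos 6-1 to 8-3. A count of 0, taken to allow up to 3 counts, allows a level of up to between 0.240 and 1.05 CPM, by embryo. The highest levels were 9.11 CPM in embryo 7-3 (exact 95% interval 6.51 to 12.4) and 4.95 CPM in embryo 7-1 (3.20 to 7.31), against 2.90 CPM in the highest wild-type embryo, 1-1 (2.00 to 4.08). These 2 embryos of father 7 lay above all wild-type embryos, while embryo 7-2 of the same father had no count. Mos had a log2 fold change of 1.96 ± 1.53 (SE; 95% interval -1.19 to 5.10; edgeR's adjusted p = 0.951). It was 3.22 without embryo 1-1 and 1.18 without embryo 7-3, so that single embryos moved it in both directions.

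H1FOO is the linker histone of oocyte chromatin, replaced by somatic linker histones as the embryo divides. H1foo CPM ran from 41.9 over a median of 74.7 to 155 in wild-type embryos and from 8.88 over 50.1 to 412 in Parg(110) embryos. The wild-type embryos lay within 3.69-fold of each other and the Parg(110) embryos within 46.3-fold: 4 of the latter (6-1, 6-2, 7-3 and 8-3) lay below the wild-type range and 2 (6-3 and 8-2) above. The mean was 88.0 ± 42.2 in wild-type and 103 ± 129.6 CPM in Parg(110) embryos (SD, n = 9 each). The log2 fold change of means was 0.21 ± 0.55 (SE; edgeR's adjusted p = 0.997). It was -0.47 without embryo 8-2, and the difference in mean log2(CPM + 1), which weighs high embryos less, was -0.57, so that no direction can be given for H1foo.

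Oosp1 CPM ran from 42.3 over 94.3 to 141 in wild-type embryos and from 4.10 over 87.3 to 178 in Parg(110) embryos. Embryo 7-3, with 18 counts (95% interval 2.43 to 6.48 CPM), stood below all others, and 4 Parg(110) embryos (6-2, 7-1, 7-2 and 8-3) lay above the wild-type range. Its log2 fold change was 0.09 ± 0.43 (SE; edgeR's adjusted p = 1.000).

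**Figure D1:**
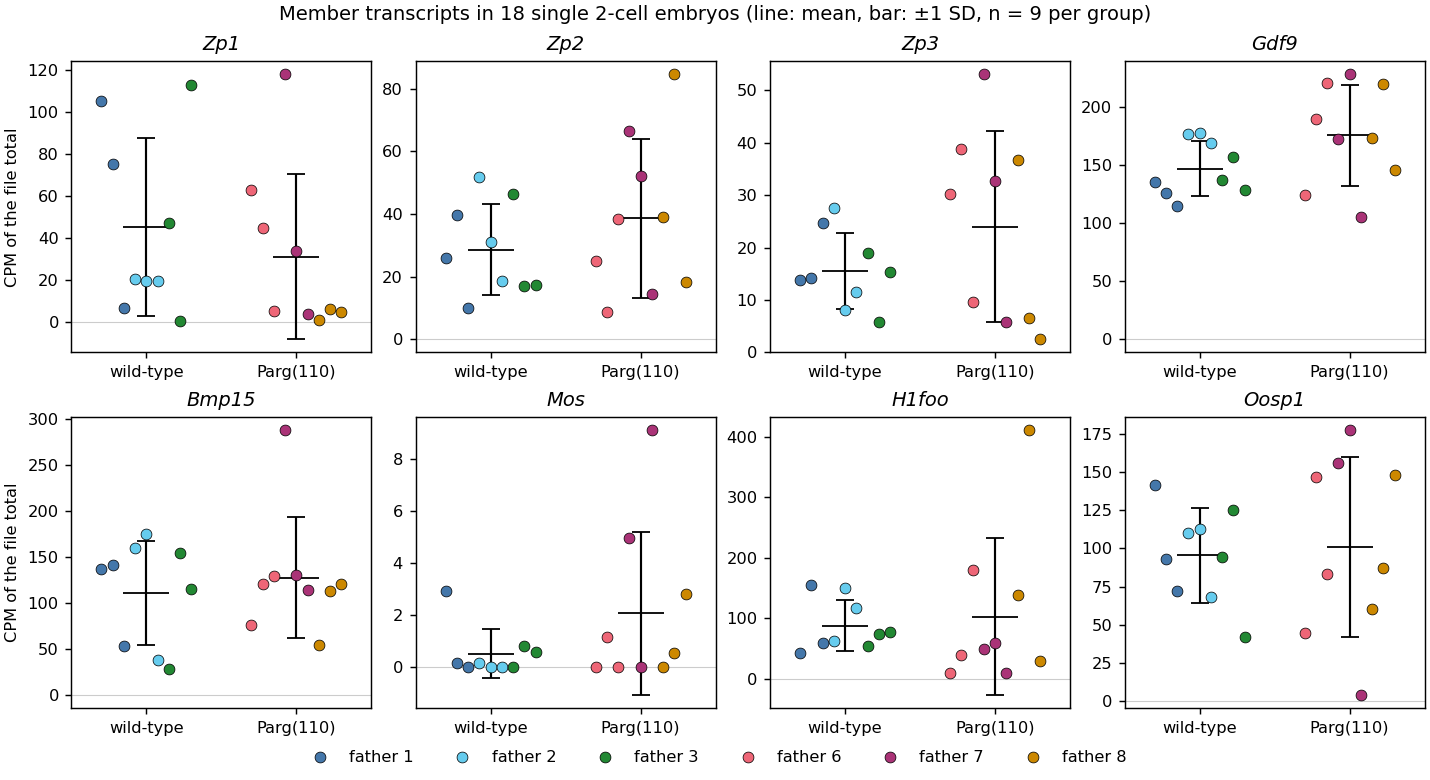
CPM of the file total (vertical axis, linear, a scale for each panel) of the 8 transcripts in each embryo, by group and coloured by father, with the mean and ±1 SD (n = 9 per group). The groups overlap for all 8, and the Parg(110) embryos reach beyond the wild-type range at both ends for Zp2, Zp3, Gdf9, H1foo and Oosp1.

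In the group comparison none of the 8 members passed an adjusted p of 0.1 in edgeR's quasi-likelihood test, and none had an unadjusted p below 0.05. Over all 15333 transcripts tested, 0% passed the adjusted threshold and 5.8% had an unadjusted p below 0.05 (889 transcripts). DESeq2's Wald test called 38 transcripts and limma 0, and neither called a member. The median log2 fold change of the 8 members was 0.24, with 7 of 8 above 0, beside a median of -0.02 over all transcripts, of which 49.0% were above 0. The exact two-sided permutation test over all 48620 splits of the embryos into 9 and 9, on the difference in mean log2(CPM + 1), passed 0.05 for 0 of 8 members. The smallest exact permutation p was 0.146, for Gdf9, with a difference of 0.23. On that scale Zp1, H1foo and Oosp1 had differences below 0 (-0.81, -0.57 and -0.31) and the other 5 above, so that H1foo and Oosp1 had the opposite sign to their edgeR fold changes. These tests treat the embryos of a father as independent. With the 3 fathers of each group as the units, where the smallest possible exact permutation p is 0.1, p lay between 0.3 and 0.7 for the 8 members.

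The offspring of Parg(110)-/- males were next taken male by male, 3 embryos at a time, and compared with all 9 wild-type embryos, as individual males may differ. None of 22 member tests passed the adjusted threshold in edgeR, and 1 had an unadjusted p below 0.05. Over all transcripts, the 3 comparisons called 0.00236% at the adjusted threshold and 8.29% at an unadjusted p below 0.05. That 1 test was Zp1 in the embryos of father 8, with a log2 fold change of -3.49 (95% interval -6.14 to -0.85) and edgeR's adjusted p = 0.556. DESeq2 called it at an adjusted p of 0.0391, in a comparison in which it called 289 transcripts, and over the other edgeR settings its adjusted p lay between 0.338 and 0.646. The Zp1 fold changes were -0.24 for father 6 and 0.22 for father 7. H1foo had a log2 fold change of -1.13 for father 7 and 1.11 for father 8, with adjusted p of 0.595 and 0.570 in edgeR. Gdf9 had nearly the same fold change for each father, 0.29, 0.23 and 0.28. The members' median was -0.05, 0.46 and 0.05 for fathers 6, 7 and 8, beside -0.10, -0.14 and -0.20 over all transcripts, and the 3 comparisons share their wild-type embryos. Mos had too few counts to be tested for fathers 6 and 8, and its log2 fold change for father 7 was 3.13 (95% interval -0.48 to 6.73).

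**Figure D2:**
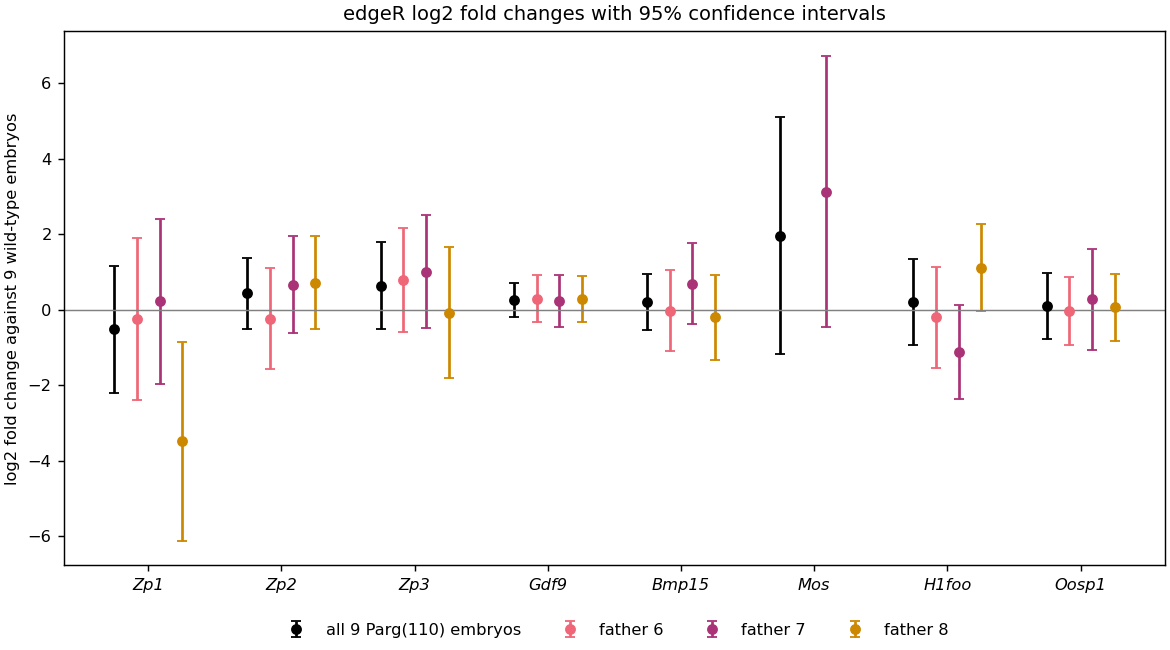
edgeR log2 fold change of the 8 transcripts (vertical axis) against the 9 wild-type embryos, for all 9 Parg(110) embryos and for the 3 embryos of each Parg(110)-/- father; bars are 95% confidence intervals. The intervals include 0 for all but Zp1 in the embryos of father 8, at -3.49, and those of Gdf9 in all 9 embryos (-0.19 to 0.71) are the narrowest.

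Each Parg(110) embryo, the product of a single sperm, was then compared on its own with the 9 wild-type embryos. With 1 embryo on one side, these tests rest on the spread among the wild-type embryos and take the single embryo to vary like them. None of 72 member tests passed the adjusted threshold in edgeR, and 5 (6.94%) had an unadjusted p below 0.05. Over all transcripts, the 9 comparisons called 0.0585% at the adjusted threshold and 5.72% at an unadjusted p below 0.05. H1foo accounted for 3 of the 5, with log2 fold changes of -3.28 in embryo 6-1 and -3.20 in embryo 7-3 and of 2.21 in embryo 8-2. Oosp1 in embryo 7-3 had the smallest adjusted p, 0.135 in edgeR, with a log2 fold change of -4.57 (95% interval -6.65 to -2.48). The fifth was Zp1 in embryo 8-1, at -5.79, where 3 counts lie behind the value. In these comparisons the median log2 fold change over all transcripts lay between -1.66 and -0.78, transcripts with no count in the single embryo included.

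**Figure D3:**
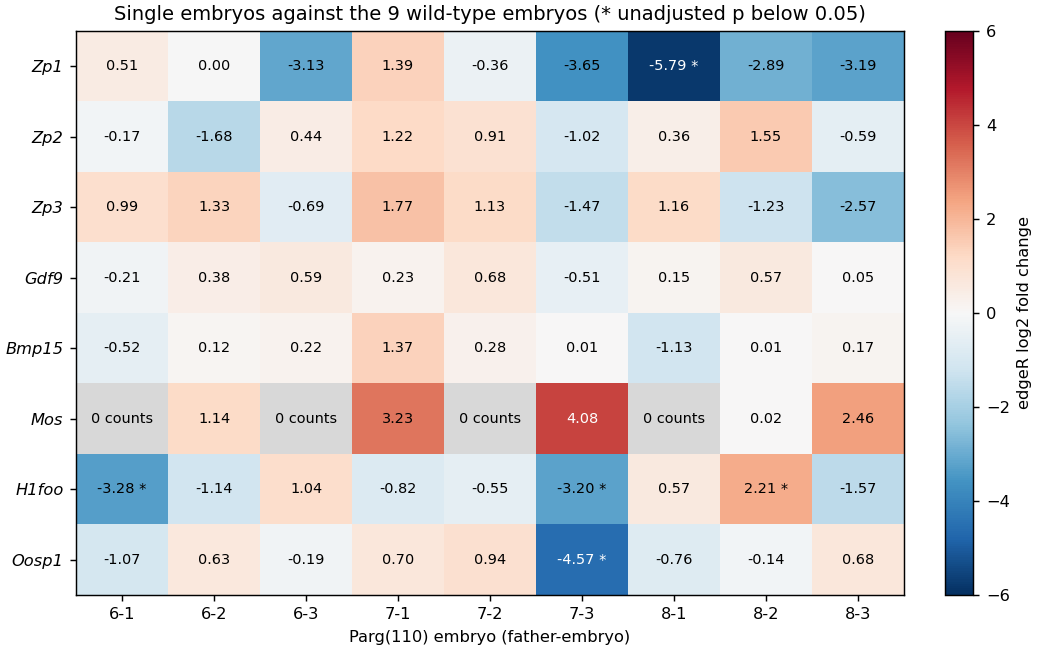
edgeR log2 fold change of each Parg(110) embryo (columns) against the 9 wild-type embryos for the 8 transcripts (rows); asterisks mark an unadjusted p below 0.05 and grey cells have 0 counts of Mos. Embryo 7-1 is above 0 for 7 of 8 transcripts, and embryo 7-3 has the value of -4.57 for Oosp1.

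Embryos 7-1 and 7-3, of the same father, had the most members above and the most below the wild-type range. Embryo 7-1 was above every wild-type embryo for 6 of 8 members (Zp1, Zp2, Zp3, Bmp15, Mos and Oosp1) and below for none. In that embryo 12.4% of all 15333 transcripts lay above the wild-type range and 10.9% below it. Embryo 7-3 was below every wild-type embryo for 4 members (Zp3, Gdf9, H1foo and Oosp1) and above for Mos, with 9.54% of all transcripts below and 11.02% above. The 8 members summed to 909 CPM in embryo 7-1 and to 266 CPM in embryo 7-3, beside 341 to 674 CPM in wild-type embryos. Embryo 7-3 had the lowest sum of all 18, and embryo 8-2 the highest, 929.8 CPM, of which H1foo made up 412. The 15 other oocyte-enriched messages summed to 2959 and 2030 CPM in these embryos, beside 2033 to 2995 CPM in wild-type embryos. Their total counts were 5048902 and 4390779, and they had 13401 and 12439 transcripts with a count, within the wild-type range of 11823 to 16436. Whether depth had a part in the levels of these embryos was not tested.

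Over the 72 member values of the Parg(110) embryos, 22 (30.6%) lay above the wild-type range and 9 (12.5%) below it. Over all 15333 transcripts, 10.6% of the Parg(110) values lay above and 8.82% below. In the other direction, 0 of 72 wild-type member values lay above the Parg(110) range and 4 below it, beside 9.51% and 4.05% over all transcripts. Without embryo 7-1 the counts were 16 of 64 above (25.0%) and 9 below (14.1%), beside 10.4% and 8.56% over all transcripts. In that setting 8 of 72 wild-type member values (11.1%) lay above the Parg(110) range, beside 10.98% over all transcripts. The count of 0 therefore rests on embryo 7-1. The members share embryos, and these counts are a description with no test. With TMM scaling the counts above and below were again 22 and 9.

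The members also differed in how evenly they were left in the embryos. Each was set beside the transcripts whose mean CPM lay within 1.5-fold of its own. The SD of log2(CPM + 1) over 18 embryos was 0.33 for Gdf9, and only 11 of 915 transcripts of like level (1.202%) had a lower one. Zp1 was at the other end, with an SD of 2.05 and a lower one in 94.9% of 2036 transcripts of like level. H1foo, with an SD of 1.35, also lay above most of its like, with a lower SD in 88.5%. Oosp1, with an SD of 1.16, did so (82.6%) through embryo 7-3 alone: without that embryo its SD was 0.61 and a lower one was found in 25.6% of its like. Zp2, Zp3, Bmp15 and Mos lay between, with a lower SD in 27.8%, 28.6%, 60.7% and 42.5%, the last 8.12% without embryo 7-3. Counting error made up at most 4.01% of the variance of a member's CPM, for Mos, and 0.314% for Zp1. Its share in the spread of log2(CPM + 1) was not computed.

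**Figure D4:**
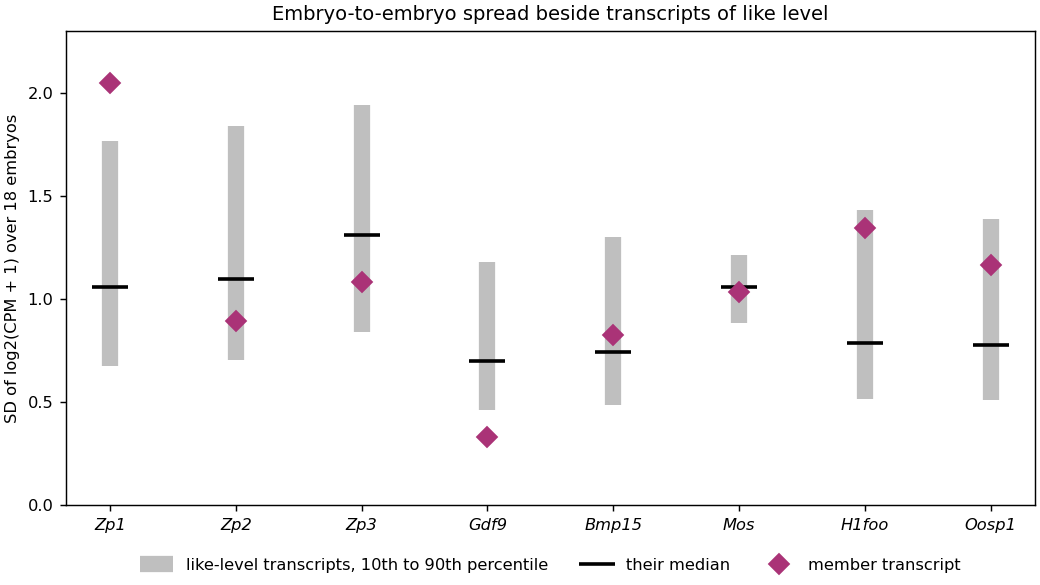
SD of log2(CPM + 1) over 18 embryos (vertical axis) for the 8 transcripts (diamonds), beside transcripts whose mean CPM is within 1.5-fold (grey bar: 10th to 90th percentile; line: median). Gdf9, at 0.33, lies below the bar of its like and Zp1, at 2.05, above.

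For 5 of the 7 members other than Mos, the SD of log2(CPM + 1) was larger in Parg(110) than in wild-type embryos. For H1foo it was 1.80 against 0.66, for Oosp1 1.60 against 0.53 (0.72 without embryo 7-3), for Zp3 1.42 against 0.67, for Zp2 1.04 against 0.76 and for Gdf9 0.39 against 0.23. For Bmp15 it was smaller (0.64 against 0.99), and for Zp1 it was 2.06 against 2.07, or against 1.38 without embryo 3-2. A larger SD in Parg(110) embryos was also the rule among the 4410 transcripts of the same range of levels, 66.5% of which had one, with a median SD of 1.04 against 0.87. The difference in spread was not tested.

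Levels of the members were then compared across embryos. Among the 21 pairs of the 7 members other than Mos, 17 had a Pearson r of log2(CPM + 1) above 0 and the median r was 0.22. None passed a Benjamini-Hochberg adjusted p of 0.1, by Pearson or by Spearman correlation, and 4 had an unadjusted permutation p below 0.05 by each. By Pearson correlation the largest was Gdf9 with H1foo, with r = 0.58 (permutation p = 0.00966, adjusted 0.101) and rho = 0.43 (permutation p = 0.0751, adjusted 0.316). Without the 2 embryos farthest from the median of Gdf9 it was 0.49, and it was 0.30 within wild-type and 0.83 within Parg(110) embryos. Gdf9 with Oosp1 had r = 0.56 (permutation p = 0.00748, adjusted 0.101) and rho = 0.48 (permutation p = 0.0440, adjusted 0.233). Its r was 0.37 without the 2 embryos farthest from the median of Gdf9, 0.36 within wild-type and 0.73 within Parg(110) embryos. By Spearman correlation the largest was Bmp15 with Oosp1, with rho = 0.60 (permutation p = 0.00898, adjusted 0.189) and r = 0.23 (permutation p = 0.344, adjusted 0.709). Its r was 0.34 without the 2 embryos farthest from the median of Bmp15, 0.37 within wild-type and 0.31 within Parg(110) embryos. Embryo 7-3, the lowest for Oosp1, was kept there. Zp1 with Zp3 had r = 0.47, Zp1 with Zp2 0.15 and Zp2 with Zp3 0.17. The 2 growth factor messages had r = 0.25. Embryos share fathers, and CPM values of an embryo share its total.

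As a description with no test, the transcripts whose pattern over the 18 embryos was most like that of each member were taken from 10757 others (10758 for Mos) counted 10 or more times in 9 or more embryos. Bmp15 was most like Wee2, the oocyte kinase that keeps cyclin-dependent kinase inactive (r = 0.87), and Desi2 (0.87). Oosp1 was most like Fam220a (0.86) and Rnf214 (0.80), and Zp1 like Rnf8 (0.83), a ubiquitin ligase of the DNA damage response, and Mapk3 (0.79). Zp2 was most like Ube2e3 (0.81) and Fer (0.75), and Zp3 like Cers5 and Mapk3 (0.75 each), so that Mapk3 was among the nearest of 2 zona messages. Gdf9 was most like Esco1 (0.80) and Bag4 (0.77), and H1foo like Pbrm1 (0.76) and Gsta4 (0.75). Mos was most like Uvssa (0.76) and Sbf2 (0.69). None of the 8 had another member among its nearest 2.

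The partners of the members were taken from 9 lists, markers included, with 94 genes, of which 93 were found and 64 were tested in the group comparison. None passed the adjusted threshold in edgeR, and 1 (1.56%) had an unadjusted p below 0.05, beside the 5.8% over all transcripts. Of the egg surface genes Astl, Izumo1r, Cd9 and Furin, 4 of 4 were tested and 1 had a log2 fold change above 0. Furin, a convertase of secreted proteins, had 33.1 ± 30.5 CPM in wild-type and 33.7 ± 45.9 in Parg(110) embryos. Izumo1r, the egg receptor for the sperm protein IZUMO1, had 14.0 ± 16.6 and 9.31 ± 8.51 CPM, and Astl, the cortical granule protease that cleaves ZP2, 12.7 ± 7.28 and 8.53 ± 5.33 CPM (SD, n = 9 each), with a log2 fold change of -0.58.

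Of 17 genes of Gdf9 and Bmp15 signalling, 11 were tested, 8 with a log2 fold change above 0, and their median was 0.39. The most abundant was Bmpr2, the type II receptor of both ligands, at 158 ± 58.5 CPM in wild-type and 208 ± 66.5 CPM in Parg(110) embryos (log2 fold change 0.39, edgeR's adjusted p = 0.928). Smad3 had 107 ± 50.4 and 107 ± 66.1 CPM, and Smad2, the other mediator of GDF9 signals, 72.1 ± 38.4 and 120.4 ± 86.1 CPM (SD, n = 9 each). Smad2 had the smallest p of the list, with a log2 fold change of 0.73 and edgeR's adjusted p = 0.908.

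Of 11 genes of the Mos and MAP kinase list, 11 were tested, 7 above 0, and the median log2 fold change was 0.01. Ccnb1, the cyclin stabilised in the arrested egg, had 61.6 ± 26.3 and 61.9 ± 23.6 CPM. Cdc20, the activator of its destruction, had 71.4 ± 24.8 CPM in wild-type and 47.9 ± 13.0 CPM in Parg(110) embryos, the smallest p of the list (log2 fold change -0.57, edgeR's adjusted p = 0.889).

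Of 10 other linker histone genes, 5 were tested and 3 were above 0. Hist1h1a was the most abundant, at 294 ± 90.8 CPM in wild-type and 343 ± 105.6 CPM in Parg(110) embryos (log2 fold change 0.22, edgeR's adjusted p = 0.971), followed by H1f0, at 53.6 ± 40.9 and 54.9 ± 19.96 CPM. Hist1h1e was the single listed gene with an unadjusted p below 0.05, at a log2 fold change of 3.56 and edgeR's adjusted p of 0.841. It had a count in 8 of 18 embryos. Of the linker histones of the male germ line, Hist1h1t and Hils1 had no count. H1fnt had a count in 3 embryos, with 10.95 ± 32.7 CPM in wild-type and 0.0581 ± 0.174 CPM in Parg(110) embryos (SD, n = 9 each). Its SD exceeded its mean in both groups, so that these means rest on few embryos and give no group level.

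Of 7 oocyte transcription factor genes, which include activators of zona genes such as Figla, 5 were tested and 3 were above 0. Taf4b had 71.5 ± 44.0 and 131 ± 193 CPM, and Ybx2, which binds and stores maternal messages, 98.0 ± 63.7 and 84.4 ± 68.1 CPM. Of the 15 other oocyte-enriched genes, 15 were tested, 10 above 0, with a median log2 fold change of 0.10. The most abundant were Omt2a, at 692 ± 143 and 555 ± 151 CPM, and Nlrp5, a part of the maternal subcortical complex, at 452 ± 215 and 512 ± 395 CPM. Omt2b, a close copy of Omt2a, had the smallest p of the list (log2 fold change -0.38, edgeR's adjusted p = 0.908). Reads that map equally well to both copies would have been left out, since only unique reads were kept.

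Of 11 embryonic 2-cell activation genes, 9 were tested, 3 above 0, with a median log2 fold change of -0.24. Tcstv3 had 25.8 ± 21.1 and 37.0 ± 27.9 CPM and its copy Tcstv1 18.5 ± 15.0 and 24.5 ± 11.9 CPM. Zscan4f, one of several near-identical copies, had the smallest p of the list (log2 fold change 1.80, edgeR's adjusted p = 0.949). The sum of the list lay between 15.4 and 165 CPM in wild-type and between 37.2 and 205 CPM in Parg(110) embryos. Among the other markers, Amhr2 had 14.0 ± 10.9 and 8.95 ± 4.37 CPM, Cyp19a1 1.76 ± 2.67 and 2.82 ± 3.89 CPM, Gapdhs 0.832 ± 1.08 and 0.160 ± 0.480 CPM and Akap4 0.398 ± 1.09 and 0.391 ± 1.17 CPM (SD, n = 9 each, wild-type first). Ptgs2 had a count in 3 embryos.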

How the data were processed

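RNA of 18 single 2-cell embryos was amplified (WT-Ovation One-Direct), sequenced on an Illumina HiSeq instrument and mapped by the authors to mm9 with RUM, with at most 1 mismatch and unique reads only. The authors deposited raw read counts per RefSeq transcript, and their processing notes name DESeq 1.10.0; the counter, its use of strand and its treatment of isoforms are not given in the sources used here. Amplification of a single embryo can lose rare transcripts and widen the spread between embryos, and reads carry no molecular identifiers, so intervals cover counting error only.

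Members, lists and comparisons were chosen with earlier results of these data known. Symbols came from RefSeq, with the highest-count transcript for a listed gene. CPM are shares of the file total. Counts were scaled by TMM and tested with edgeR 4.0.16 (quasi-likelihood, R 4.3.3) on transcripts counted 10 or more times in 3 or more embryos (1 or more for single-embryo comparisons), with Benjamini-Hochberg adjustment over all transcripts and a threshold of 0.1. SE are the fold change divided by the root of F. Embryos of a father were treated as separate samples, so p-values measure the spread between these embryos (between the wild-type embryos alone for single-embryo comparisons). Member CPM was tested by exact permutation, and correlations by 100000 permutations (scipy). Alternatives used DESeq2 1.42.0, limma 3.58.1 with father as a random effect, other scalings, filters, thresholds, and embryos or fathers left out. Made-up data with known answers were also run through edgeR's test and the exact permutation test, with outcomes not reported here. Embryo numbers did not pair the samples (median correlation of same-numbered embryos 0.00575, range -0.122 to 0.178). All 8 members are named; from each list the 2 genes of highest mean CPM and the gene of smallest p are named, and for likeness the 2 nearest transcripts. Other genes of the marker lists are named to say which had no count.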

Additional observations from a re-analysis of the deposited data

Results flagged for a closer look

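In 3 of the 16 sets of 9 embryos (8 transcripts in 2 groups), the highest embryo stood apart from the next. The gap was more of the range than Dixon's 95% critical value for 9 samples. Chance passes that value in about 1 set in 20 only where values are normally distributed. The gaps were taken on CPM without logarithms, so that rate need not hold here. Bmp15 in embryo 7-1, at 288 CPM, lay 0.673 of the range above the next Parg(110) embryo. H1foo in embryo 8-2, at 412 CPM, lay 0.573 of the range above the next. Mos in wild-type embryo 1-1, at 2.90 CPM, lay 0.728 of the range above the next wild-type embryo. Bmp15 and H1foo in these embryos rest on many reads (2362 counts for H1foo), and Mos on 33 counts.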

How the results depend on the processing

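No member was called in the group comparison by edgeR under any alternative, by DESeq2 or by limma. The number of transcripts called was 0, but 38 with DESeq2's Wald test and between 0 and 5 when a father or an embryo was left out (5 without father 6, 2 without embryo 6-1 and 2 without embryo 7-1). The number of members with a log2 fold change below 0 was 1, but 3 with limma and between 1 and 3 when a father or an embryo was left out. Signs turned for Zp1 without father 8, for Bmp15 without father 7 or embryo 7-1, for H1foo with limma (-0.61), without father 8 or without embryo 8-2, and for Oosp1 with limma (-0.25), without father 7 or without embryo 3-3, 7-1 or 7-2. The cause was not tested. Limma's median over all transcripts was -0.19. With a father or an embryo left out, the log2 fold change lay between -1.10 and 0.0096 for Zp1, -0.12 and 0.37 for Bmp15, -0.60 and 0.58 for H1foo and -0.059 and 0.26 for Oosp1, and the difference in mean log2(CPM + 1) of Zp1 between -1.26 and 0.076. Zp2, Zp3, Gdf9 and Mos stayed above 0 under every alternative run, Zp2 between 0.19 and 0.68, Zp3 between 0.21 and 0.89, Gdf9 between 0.17 and 0.41 and Mos between 0.55 (without father 7) and 3.22 (without embryo 1-1). In the father comparisons DESeq2 called 1 member test (Zp1, father 8) where edgeR called 0, and no alternative changed the count of 0 in the single-embryo comparisons or in the exact permutation tests. With the embryo number as a block 0 transcripts were called. Mos was not tested when 10 counts were required in 9 embryos. Counts outside the other group's range, and spreads with an embryo left out, were added after seeing the data. The spread between embryos limits all 8 members.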
